A study of Homo sapiens with 24 samples.

Results

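The expression of 45 genes of the ATF4 amino acid response and the unfolded protein response was examined in 4 squamous cell carcinoma lines of the head and neck, each as erlotinib-sensitive and as erlotinib-resistant cells. The members were chosen by gene symbol with earlier results of these data known, and all probes annotated to these symbols were taken. Counts of members therefore describe the list and are not a test of it. Of the members, 43 were measured among the 14077 genes tested. The ATF4 arm holds 29 genes, of which 28 were measured, and covers regulators, stress effectors, amino acid and one-carbon enzymes, amino acid transporters and tRNA synthetases. The ER chaperone arm holds 16 genes, of which 15 were measured, and covers XBP1, chaperones, folding factors and components of ER-associated degradation. CARS1 of the ATF4 arm and HERPUD1 of the ER chaperone arm have no named probe in the annotation used here and were not analysed.

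All 4 lines are established human carcinoma lines: SQ20B is laryngeal, FaDu is pharyngeal, and SCC-25 and Cal-27 are tongue lines. For each line, 3 arrays of parental, erlotinib-sensitive cells and 3 arrays of erlotinib-resistant cells were hybridised on Illumina beadchips, giving 24 arrays in 8 groups. Erlotinib is a small molecule that blocks the kinase of EGFR, the epidermal growth factor receptor. All groups, resistant and sensitive, received 0.01% DMSO for 48 h before RNA was taken. The resistant cells were kept in the medium of their line with erlotinib added, and the sources used here do not give whether the drug was present in the 48 h. SCC-25 grew in a mixture of DMEM and Ham's F12 with 2.5 mM glutamine and hydrocortisone. The other lines grew in DMEM with 4 mM glutamine, so a difference between SCC-25 and another line is also one between media. The sources name 1 resistant culture for each line and do not say that replicates were separate cultures, so p-values measure the spread between these arrays, and resistance cannot be told apart from anything else in which the cultures of a line differ.

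Cells sense a lack of amino acids, stress in the endoplasmic reticulum (ER), a lack of haem or double-stranded RNA through kinases that phosphorylate the initiation factor eIF2 alpha. General protein synthesis then falls while the mRNA of the transcription factor ATF4 is translated more, and ATF4 switches on genes that make, import and charge amino acids, together with its own partners and brakes such as DDIT3 and TRIB3. The unfolded protein response of the ER has further branches, in which IRE1 splices the mRNA of XBP1 and ATF6 is released by cleavage, and these raise the chaperones and the disposal machinery of the ER. The kinase PERK belongs to both systems. Much of the control of ATF4 and XBP1 lies in translation and splicing, which an array of mRNA levels does not measure.

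The promoters of the members were searched for short motifs of both arms. RefSeq promoter windows of GRCh38.p14, from 250 bases before to 50 bases after each gene's start, were found for 40 members, 24 of the ATF4 arm and all 16 of the ER chaperone arm. Both strands were searched for TGATG and AA parted by 1 free base, the core of the element bound by ATF4 with C/EBP partners, for the ER stress response element, CCAAT and CCACG parted by 9 free bases, and for the related ERSE-II, ATTGG and CCACG parted by 1 free base. The core occurred in 3.67% of the 27305 promoters in the table, in 6 of the 24 of the ATF4 arm (ATF3, CHAC1, ASNS, SLC7A1, SLC3A2 and CARS1) and in 1 of the 16 of the ER chaperone arm (HERPUD1). The ER stress response element occurred in 0.0806% of all promoters, in 5 of the ER chaperone arm (XBP1, HSPA5, HSP90B1, CALR and CRELD2) and in 0 of the ATF4 arm. ERSE-II occurred in 0.0549% of all promoters and in 3 of the ER chaperone arm (HYOU1, SDF2L1 and HERPUD1). A match describes letters only and is not a measured binding site. The stretches around the matches of 2 ATF4-arm and 5 ER-chaperone-arm members to which the results return are given 5′ to 3′ on the gene's strand, with the matched letters in capitals. They lie at chr7:97872459-97872486 on the minus strand (ASNS), chr1:212565206-212565233 on the plus strand (ATF3), chr9:125241381-125241419 on the minus strand (HSPA5), chr22:28800593-28800631 on the minus strand (XBP1), chr19:12938374-12938412 on the plus strand (CALR), chr22:49918544-49918582 on the plus strand (CRELD2) and chr22:21642104-21642134 on the plus strand (SDF2L1). In CALR, CRELD2 and SDF2L1 the match is on the opposite strand and reads as the reverse complement.
ASNS: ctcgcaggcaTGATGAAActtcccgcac
ATF3: aaggtcaggaTGATGGAAggctgtcata
HSPA5: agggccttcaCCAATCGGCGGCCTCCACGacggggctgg
XBP1: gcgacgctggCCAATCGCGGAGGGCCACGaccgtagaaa
CALR: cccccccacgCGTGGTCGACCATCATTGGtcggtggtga
CRELD2: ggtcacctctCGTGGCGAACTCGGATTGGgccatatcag
SDF2L1: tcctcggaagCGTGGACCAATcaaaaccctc

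Levels are normalized log2 intensities of a gene's brightest probe, and changes are log2 differences, resistant minus sensitive, ± the standard error of limma with 3 arrays on each side. A gene was called at an adjusted p under 0.05, that is limma's p adjusted after Benjamini and Hochberg over all 14077 genes. SCC-25 and Cal-27 were normalized apart from FaDu and SQ20B, so levels are compared only within those pairs, and never between genes, since each probe has its own brightness. In such bulk RNA, fewer cells of a kind and less RNA per cell cannot be told apart. Between 39.52% and 45.04% of probes were detected on an array, and the arrays of a group had pairwise correlations across genes of 0.991 to 0.996. In SQ20B detection differed by state, with 44.4% to 45.04% of probes on resistant and 39.77% to 40.7% on sensitive arrays. The squamous identity of the lines was checked on 4 annotated markers of 7 listed. Of these, 3 were called lower in SCC-25, 2 in Cal-27 and in FaDu and 1 in SQ20B. CDH1 rose by 0.31 in FaDu, the only call of these markers as higher. EPCAM and CDH1, epithelial adhesion genes, were detected on all 24 arrays and changed by -0.50 ± 0.09 and -0.54 ± 0.08 in SCC-25. KRT14, a basal keratin, was detected on no array of SQ20B and changed by -2.37 ± 0.11 in FaDu, -0.44 ± 0.12 in SCC-25 and -6.24 ± 0.12 in Cal-27. KRT5, its partner keratin, changed by -1.63 ± 0.09 in SQ20B, -0.56 ± 0.09 in FaDu and -1.95 ± 0.10 in Cal-27. Of 10 markers of other cells, PTPRC, CD3E and MLANA were not detected on enough arrays to be tested. CDH5, an endothelial cadherin, rose by 3.56 ± 0.10 in Cal-27 and 2.55 ± 0.14 in FaDu, and COL3A1, a fibroblast collagen, by 2.92 ± 0.19 in SCC-25. VWF, another endothelial marker, changed by -1.04 ± 0.12 in FaDu and 0.48 ± 0.12 in SQ20B and was detected on no array of the tongue lines. The part of any of these markers in the changes described here was not tested.

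The ATF4 arm was higher in resistant cells of Cal-27 and SQ20B, mixed but mostly higher in FaDu, and lower in SCC-25. In Cal-27, 25 of the 28 measured genes rose and 1 fell, against 16.4% of all genes called higher and 17.4% called lower. In SQ20B 25 rose and 1 fell as well, where 28.4% of all genes were called higher and 25.8% lower. In FaDu 15 rose and 2 fell, against 20.6% and 20.3% of all genes, and under median scaling 9 rose and 4 fell. In SCC-25 only 2 rose and 13 fell, against 15.4% and 15.5% of all genes. The median change of the arm was 1.03 in Cal-27, 1.03 in SQ20B, 0.34 in FaDu and -0.38 in SCC-25, where the median over all genes lay between -0.02 and 0.00 in every line.

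The ER chaperone arm was mostly lower in resistant cells of SCC-25 and FaDu, mostly higher in Cal-27 and divided in SQ20B. In SCC-25 it held 11 genes that fell and 0 that rose of 15, against 15.5% and 15.4% of all genes. In FaDu 9 fell (60%) and 2 rose (13.3%), against 20.3% and 20.6% of all genes. In Cal-27 8 rose (53.3%) and 2 fell (13.3%), against 16.4% and 17.4%. In SQ20B 6 rose and 6 fell, 40% each, against 28.4% and 25.8%. The rises in FaDu and the falls in Cal-27 were thus below the shares of all genes. The counts by role given below are to be read beside the same shares. Its median change was -0.46 in SCC-25 and 0.31 in Cal-27, and -0.43 and -0.22 in FaDu and SQ20B. With any 1 array of the line left out, the falls in Cal-27 numbered 0 to 1 and the rises in FaDu 1. FaDu and SQ20B are the lines in which the medians of the arms had opposite signs. In SQ20B the median of the ER chaperone arm was the value of HYOU1, which was not called, between 6 rises and 6 falls. Changes of at least 2-fold were called for 3 members in SCC-25, all lower, for 18 in Cal-27 and 2 in FaDu, all higher, and in SQ20B for 16 higher and 3 lower, where the same rule took 3.96%, 5.70%, 5.78% and 14.0% of all genes in either direction.

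**Figure D1:**
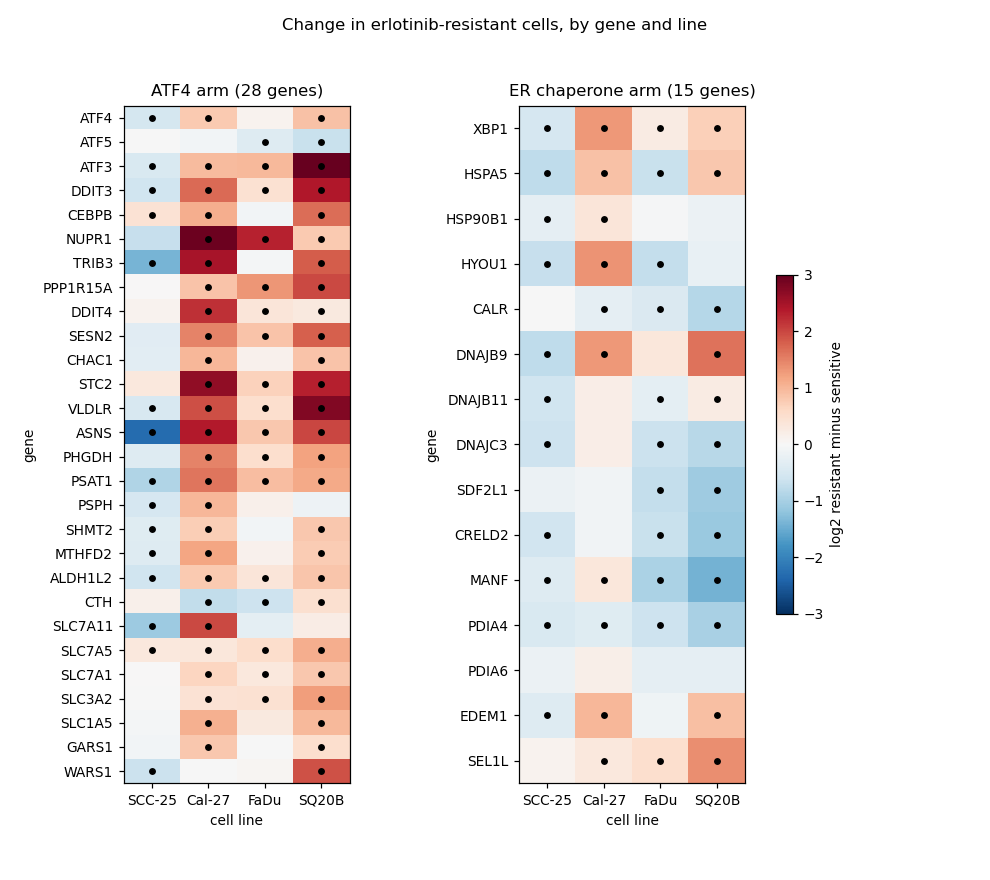
Log2 change, resistant minus sensitive, of the 28 measured ATF4-arm genes (left) and the 15 measured ER-chaperone-arm genes (right) in the 4 lines; red is higher and blue lower in resistant cells, and a black dot marks an adjusted p under 0.05. The Cal-27 and SQ20B columns are red for 25 called genes of the ATF4 arm each, the SCC-25 column is mostly blue, and in SQ20B the ER chaperone arm splits into 6 called higher and 6 called lower.

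The same picture was seen array by array when each gene was set against its mean over the 12 arrays of its table and the median was taken over the arm. For the ATF4 arm in Cal-27, these medians were 0.83 to 0.88 on the resistant arrays and -0.23 to -0.20 on the sensitive arrays. In SQ20B they were 0.77 to 0.89 and -0.47 to -0.37, and in FaDu -0.01 to 0.14 and -0.28 to -0.24, so resistant and sensitive arrays did not overlap in any of these 3 lines. In SCC-25 the resistant arrays lay at -0.49 to -0.43 and the sensitive arrays at -0.36 to 0.02. The low end of that range is replicate 1 of sensitive SCC-25, at -0.36, while replicates 2 and 3 were at -0.04 and 0.02. That array stood apart for many ATF4-arm genes, and without it the arm had 17 genes lower and 1 higher in SCC-25, with a median of -0.49. The ER chaperone arm of SCC-25 had 11 genes lower with or without that array. For this arm that array was the highest of the sensitive ones, at 0.14 against 0.08 and 0.04 for replicates 2 and 3.

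**Figure D2:**
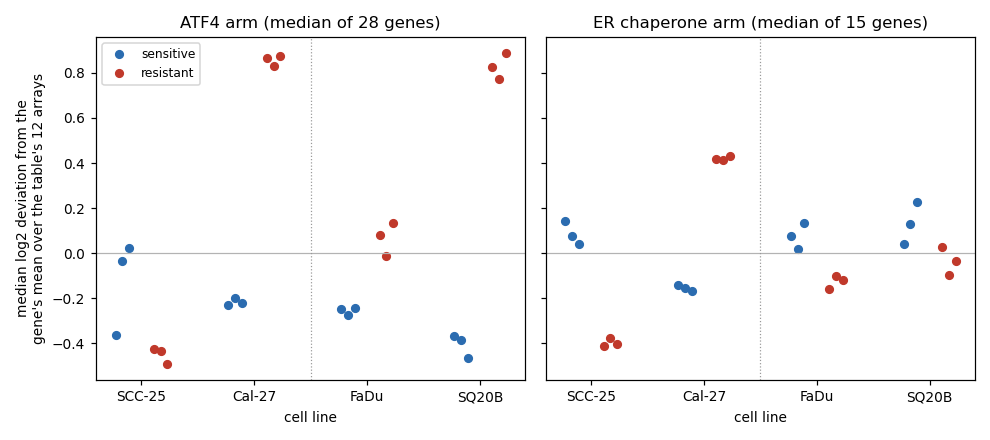
Median over the genes of each arm of the log2 deviation from the gene's mean over the 12 arrays of its table (vertical axis), with 1 point for each array, by line and sensitivity; the dotted line parts the separately normalized tables. Resistant Cal-27 and SQ20B arrays stand at 0.77 to 0.89 in the ATF4 arm, and in the ER chaperone arm the resistant SQ20B arrays lie at -0.10 to 0.03 against 0.04 to 0.23 in sensitive cells.

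Among the transcription factors and regulators of the ATF4 arm, 6 of 7 rose in Cal-27 and in SQ20B, 3 rose in FaDu and 1 rose in SCC-25. ATF4 itself read 13.35, 13.28 and 13.41 on the resistant and 12.55, 12.53 and 12.60 on the sensitive arrays of Cal-27. In SQ20B it read 13.16, 13.17 and 13.18 against 12.27, 12.33 and 12.29, and in SCC-25 11.73, 11.88 and 11.87 against 12.26, 12.38 and 12.45. The groups did not overlap in these lines, with resistant arrays above sensitive ones in Cal-27 (1.72-fold, adjusted p = 9.62e-06) and SQ20B (1.83-fold, adjusted p = 7.16e-07) and below them in SCC-25 (1.45-fold, adjusted p = 0.000315). In FaDu the resistant arrays read 13.23, 13.30 and 13.13 and the sensitive arrays 13.15, 13.18 and 13.04, which overlap, and the change of 0.10 ± 0.08 was not called (adjusted p = 0.344). The probes of ATF4 did not tell 1 story in FaDu: of its 3 tested probes the brightest stood at 0.10, while the dimmer ILMN_2358457 and ILMN_1783394 were called lower at -0.35 and -0.59, and the mean of the 3 was -0.28 and called.

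TRIB3, the pseudokinase that acts as a brake on ATF4, moved further than ATF4 in the tongue lines and in SQ20B. Its Cal-27 arrays read 10.95, 11.10 and 10.96 in resistant and 8.53, 8.51 and 8.54 in sensitive cells, a 5.55-fold rise (adjusted p = 4.79e-08). In SCC-25 the resistant arrays read 7.91, 7.85 and 7.88 and the sensitive arrays 8.84, 9.54 and 9.41, a change of -1.38 ± 0.14 that became -1.60 without replicate 1 of the sensitive cells. All resistant arrays lay on 1 side of all sensitive arrays in both lines, above in Cal-27 and below in SCC-25. SQ20B read 12.004, 11.99 and 12.17 against 10.12, 10.32 and 10.28, again without overlap and 3.52-fold higher. FaDu read 9.36, 8.94 and 9.15 against 9.26, 9.20 and 9.18, which overlap, and its change of -0.06 ± 0.11 was not called.

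DDIT3 encodes CHOP, a transcription factor tied to cell death under prolonged ER stress. It rose in 3 lines and fell in SCC-25, and in no line did its groups overlap. SQ20B read 10.38, 10.28 and 10.13 in resistant and 7.99, 7.84 and 7.79 in sensitive cells, and Cal-27 8.79, 8.75 and 8.93 against 7.18, 7.06 and 7.12. These are rises of 5.25-fold (adjusted p = 1.01e-09) and 3.26-fold (adjusted p = 1.01e-08). FaDu read 7.23, 6.97 and 7.20 against 6.57, 6.72 and 6.74, and SCC-25 6.995, 7.09 and 7.14 against 7.60, 7.66 and 7.74. The corresponding changes were 0.46 ± 0.10 and -0.59 ± 0.08, both called.

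ATF3, a stress-induced factor of the same protein class whose promoter holds the core shown above, rose in 3 lines. Its resistant SQ20B arrays read 9.32, 9.35 and 9.30 and its sensitive arrays 6.36, 6.27 and 6.15, far apart, a rise of 3.06 ± 0.11 or 8.36-fold (adjusted p = 1.51e-10). Its rises in FaDu and Cal-27 were 0.97 ± 0.11 and 0.94 ± 0.14, and in SCC-25 it fell by 0.45 ± 0.14, a call that was lost when any 1 of 4 of that line's 6 arrays was left out and that became -0.28 without sensitive replicate 2. CEBPB, a bZIP partner of ATF4, read 12.77, 12.59 and 12.56 against 11.01, 10.93 and 10.94 in SQ20B, a 3.20-fold rise without overlap, and rose by 1.10 ± 0.10 in Cal-27. It was 1 of the 2 ATF4-arm genes that rose in SCC-25, by 0.44 ± 0.10, and it was not called in FaDu (-0.09 ± 0.09).

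NUPR1, a small stress-induced nuclear protein, rose in Cal-27, FaDu and SQ20B. Cal-27 read 8.29, 8.49 and 8.43 in resistant and 5.84, 5.03 and 5.53 in sensitive cells, and FaDu 7.44, 7.38 and 7.34 against 4.90, 5.15 and 5.21. The sensitive arrays of both lines lay near the lowest detected signals, which were 4.75 to 5.05 over the arrays, so the rises of 2.94 ± 0.32 and 2.30 ± 0.19 rest on a dim side and were 1.66 and 1.07 without background correction. The rise in SQ20B was 0.79 ± 0.19 and was 0.50 without resistant replicate 2. The dimmer NUPR1 probe, ILMN_1810560, was detected on no array of SQ20B and was not called there (0.10). In SCC-25 the groups of the brightest probe overlapped (6.53, 5.84 and 5.74 against 5.89, 6.96 and 7.33). Its change of -0.69 ± 0.32 was not called, and it was a called -1.11 without replicate 1 of the sensitive cells. The dimmer probe was called lower there, at -0.70, though its groups overlapped as well. ATF5, a close relative of ATF4, went the other way from the arm: it fell by 0.39 ± 0.12 in FaDu and 0.66 ± 0.12 in SQ20B, the former not called without sensitive or resistant replicate 2, and stood at -0.01 ± 0.14 in SCC-25 and -0.07 ± 0.14 in Cal-27 without a call.

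**Figure D3:**
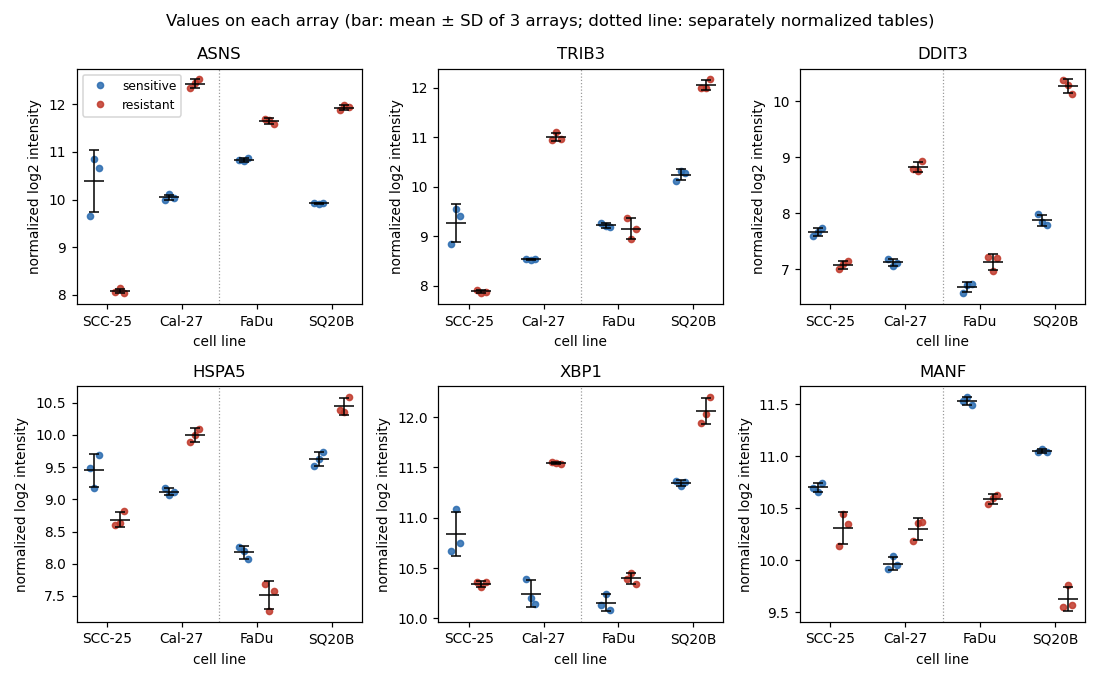
Normalized log2 intensity on each array (vertical axis, not starting at 0) of ASNS, TRIB3, DDIT3, HSPA5, XBP1 and MANF in sensitive (blue) and resistant (red) cells of the 4 lines, with bars for the mean ± SD of 3 arrays; values left and right of the dotted line are on separate scales. Resistant arrays lie below sensitive ones in SCC-25 in all 6 panels and above them in Cal-27 in all 6, while in SQ20B MANF stands at 9.55 to 9.76 in resistant against 11.04 to 11.07 in sensitive cells.

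All 6 stress effectors rose in Cal-27 and in SQ20B, 5 rose in FaDu, and in SCC-25 none rose and 1 fell. STC2, a secreted glycoprotein induced under ER stress, read 11.15, 11.28 and 11.04 in resistant and 8.56, 8.41 and 8.49 in sensitive Cal-27 cells, and 12.47, 12.51 and 12.54 against 10.13, 10.28 and 10.10 in SQ20B. Neither pair of groups overlapped, and the rises were 6.36-fold (adjusted p = 1.35e-07) and 5.05-fold (adjusted p = 1.23e-09). In FaDu STC2 rose by 0.70 ± 0.10. VLDLR, a lipoprotein receptor, read 7.14, 7.14 and 6.94 in resistant SQ20B cells and was not detected on any of the 3 sensitive arrays, whose values were 4.33, 4.35 and 4.24, so it was at least 4.47-fold higher (adjusted p = 1.51e-10). That bound rests on the background correction: the fitted log2 change of 2.77 was 1.20 without correction and 6.89 with the authors' processed values. VLDLR rose by 1.94 ± 0.09 in Cal-27 and 0.49 ± 0.09 in FaDu. In SCC-25 it was called lower, but 1 of the 6 arrays detected it and no fold can be given.

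The remaining effectors act on translation, on the growth regulator mTORC1 and on glutathione. PPP1R15A encodes GADD34, which directs the phosphatase that reverses the phosphorylation of eIF2 alpha. It read 11.75, 11.76 and 11.86 in resistant and 9.66, 9.76 and 10.01 in sensitive SQ20B cells, and 9.06, 8.99 and 8.97 against 7.81, 7.65 and 7.56 in FaDu. These groups were well apart, at 3.94-fold and 2.52-fold higher, which makes PPP1R15A and NUPR1 the 2 members with a called 2-fold rise in FaDu. DDIT4, which encodes the mTORC1 inhibitor REDD1, read 12.82, 12.73 and 12.80 against 10.93, 10.37 and 10.50 in Cal-27, a rise of 2.18 ± 0.17, and rose by 0.36 ± 0.10 in FaDu and 0.30 ± 0.10 in SQ20B. Its calls in FaDu and SQ20B were lost under median scaling, and when any 1 of 2 (FaDu) or 3 (SQ20B) arrays of the line was left out. SESN2, a leucine sensor that restrains mTORC1, read 6.996, 6.32 and 6.83 in resistant and 5.32, 5.02 and 4.42 in sensitive SQ20B cells and rose by 1.80 ± 0.24. It rose by 1.48 ± 0.20 in Cal-27 and by 0.87 ± 0.24 in FaDu, where 1 of the 3 sensitive arrays detected it and the call was lost without sensitive replicate 3 or resistant replicate 1. These sizes moved with the background correction, from 0.74 to 3.60 in SQ20B, 0.54 to 2.65 in Cal-27 and 0.29 to 1.78 in FaDu over the alternative settings.

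CHAC1, an enzyme that degrades glutathione and a well known target of ATF4, lay near the detection limit throughout. In Cal-27 the resistant arrays read 5.61, 5.38 and 5.57, all detected, and the sensitive arrays 4.45, 4.66 and 4.48, none detected, so CHAC1 was at least 1.49-fold higher (adjusted p = 0.000859). In SQ20B the values were 4.88, 5.09 and 5.68 against 4.34, 4.35 and 4.38, again detected in all resistant and no sensitive arrays and at least 1.23-fold higher (adjusted p = 0.000487). FaDu read 4.60, 4.58 and 4.59 against 4.62, 4.34 and 4.41, with no array detected. SCC-25 read 4.38, 4.36 and 4.36 against 4.30, 5.22 and 4.56, with 1 sensitive array detected, and no change was called in either line. The fitted changes of CHAC1 ranged from 0.34 to 4.02 in Cal-27 and 0.32 to 4.34 in SQ20B over the alternative settings.

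Of the 8 enzymes of amino acid synthesis and one-carbon metabolism, 7 rose in Cal-27 and in SQ20B, 4 rose in FaDu, and 6 fell in SCC-25. ASNS, asparagine synthetase, is the textbook target of ATF4 in amino acid shortage and carries the core shown above. Its SCC-25 arrays read 8.07, 8.14 and 8.04 in resistant and 9.66, 10.86 and 10.65 in sensitive cells, and its Cal-27 arrays 12.33, 12.44 and 12.52 against 9.99, 10.11 and 10.04. Resistant cells of SCC-25 therefore held the lowest and resistant cells of Cal-27 the highest ASNS levels of that table, with no overlap between the states of either line. The fall in SCC-25 was 4.95-fold (adjusted p = 8.62e-06) and the log2 change went from -2.31 to -2.67 without replicate 1 of the sensitive cells, and the rise in Cal-27 was 5.23-fold (adjusted p = 3.59e-06). SQ20B read 11.87, 11.98 and 11.94 against 9.93, 9.91 and 9.93 and FaDu 11.70, 11.67 and 11.58 against 10.83, 10.80 and 10.87. ASNS was 4.03-fold higher in the former (adjusted p = 2.10e-10) and 1.76-fold higher in the latter (adjusted p = 1.90e-06), each without overlap.

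PHGDH, PSAT1 and PSPH catalyse the consecutive steps of serine synthesis from a glycolytic intermediate. PHGDH read 13.33, 13.31 and 13.27 in resistant and 11.91, 11.75 and 11.79 in sensitive Cal-27 cells, and PSAT1 13.02, 12.96 and 13.01 against 11.57, 11.38 and 11.25. Both were well apart, with rises of 2.80-fold and 3.03-fold, and both also rose in FaDu (by 0.51 ± 0.08 and 0.92 ± 0.09) and SQ20B (by 1.20 ± 0.08 and 1.14 ± 0.09), though PHGDH in FaDu was not called under median scaling. PSPH read 9.63, 9.75 and 9.85 against 8.71, 8.79 and 8.73 in Cal-27 and rose by 1.00 ± 0.11. It was not called in FaDu (0.15 ± 0.11) or SQ20B (-0.16 ± 0.11). In SCC-25 PSAT1 fell by 0.90 ± 0.17 and PSPH by 0.50 ± 0.11. The other tested PSPH probe, ILMN_2147114, stood at -0.07 in SCC-25 and was not called. PHGDH in SCC-25 read 11.06, 11.03 and 10.90 in resistant and 10.58, 11.76 and 11.79 in sensitive cells, so replicate 1 of the sensitive cells lay below and the other 2 above the resistant arrays, and its change was -0.38 ± 0.24 without a call and a called -0.78 without that array.

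SHMT2, MTHFD2 and ALDH1L2 are folate enzymes of mitochondria. SHMT2, which makes glycine and a one-carbon unit from serine, rose by 0.82 ± 0.07 in SQ20B and 0.75 ± 0.10 in Cal-27, and in SCC-25 it fell by 0.37 ± 0.10. MTHFD2, the next enzyme of that path, read 11.54, 11.64 and 11.41 against 10.46, 10.29 and 10.28 in Cal-27, a rise of 1.18 ± 0.12 without overlap, and rose by 0.76 ± 0.10 in SQ20B. Its fall by 0.40 ± 0.12 in SCC-25 (adjusted p = 0.0289) lost its call when any 1 of 5 of that line's 6 arrays was left out. ALDH1L2, which oxidises formyl folate in mitochondria, was dim: it was at least 1.36-fold higher in SQ20B, at least 1.24-fold lower in SCC-25 and higher by 0.78 ± 0.14 in Cal-27, and its rise of 0.36 ± 0.14 in FaDu (adjusted p = 0.0480) was lost in 13 of 18 alternative settings. CTH, which makes cysteine from cystathionine, departed from the group. In Cal-27 it fell by 0.74 ± 0.15 and in FaDu it fell by 0.62 ± 0.13, whereas in SQ20B it rose by 0.48 ± 0.13. It was not called in SCC-25 (0.16 ± 0.15). The rise in SQ20B was called for the brightest of its 3 probes only. ILMN_1777060 and ILMN_2305116 stood at 0.28 and 0.21 there without a call.

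All 5 amino acid transporters rose in Cal-27, 4 rose in SQ20B, 3 rose in FaDu, and in SCC-25 1 rose and 1 fell. SLC7A5, which carries large neutral amino acids as LAT1, rose in all 4 lines and was the only measured member to do so. Its SQ20B arrays read 13.94, 13.97 and 13.94 in resistant and 12.67, 12.94 and 12.98 in sensitive cells, a 2.12-fold rise without overlap (adjusted p = 3.35e-07). It rose by 0.52 ± 0.09 in FaDu and 0.35 ± 0.09 in Cal-27. The rise in FaDu was 0.29 and not called under median scaling, and that in Cal-27 was not called in a test against a 1.2-fold change. The rise of 0.31 ± 0.09 in SCC-25 (adjusted p = 0.0171) was not called without sensitive replicate 1 (0.25) or without resistant replicate 1 (0.26). SLC3A2, the heavy chain that LAT1 and the cystine carrier share, read 13.33, 13.38 and 13.45 against 12.04, 12.15 and 12.20 in SQ20B, a 2.39-fold rise, and also rose in Cal-27 and FaDu, by 0.43 ± 0.09 and 0.45 ± 0.08, the latter not called under median scaling (0.24).

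SLC7A11, the cystine and glutamate exchanger, rose in Cal-27 and fell in SCC-25. Cal-27 read 7.15, 7.31 and 7.36 in resistant and 5.46, 5.37 and 5.05 in sensitive cells, a 3.95-fold rise (adjusted p = 7.97e-07). SCC-25 read 4.70, 4.72 and 4.92 in resistant cells, with no array detected, against 5.57, 6.23 and 5.77 in sensitive cells, so it was at least 1.87-fold lower (adjusted p = 0.000209). Without background correction the fitted changes were 0.92 and -0.36. In FaDu and SQ20B its changes of -0.29 ± 0.14 and 0.23 ± 0.14 were not called. SLC1A5, a glutamine carrier, read 11.06, 11.15 and 11.31 against 10.22, 9.98 and 10.15 in Cal-27 and rose by 1.06 ± 0.10 there and 0.97 ± 0.11 in SQ20B. SLC7A1, a carrier of cationic amino acids, rose by 0.64 ± 0.10 in Cal-27, 0.80 ± 0.11 in SQ20B and 0.32 ± 0.11 in FaDu, the last lost in 7 of 18 alternative settings.

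The 2 measured tRNA synthetases differed from each other. WARS1, which charges tryptophan tRNA and is also known as an interferon-induced gene, read 12.10, 12.01 and 12.10 in resistant and 10.06, 10.23 and 10.16 in sensitive SQ20B cells, a 3.78-fold rise (adjusted p = 3.16e-09). In SCC-25 it fell by 0.64 ± 0.11, and it was not called in FaDu (0.05 ± 0.09) or Cal-27 (-0.01 ± 0.11). GARS1, which charges glycine tRNA, rose by 0.51 ± 0.08 in SQ20B and 0.81 ± 0.10 in Cal-27 and was not called in SCC-25 (-0.08 ± 0.10) or FaDu (-0.00 ± 0.08).

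In the ER chaperone arm, XBP1, the transcription factor whose mRNA is spliced by IRE1, rose in 3 lines and fell in SCC-25. Cal-27 read 11.55, 11.55 and 11.54 in resistant and 10.39, 10.21 and 10.14 in sensitive cells, and SQ20B 11.94, 12.03 and 12.20 against 11.36, 11.31 and 11.36. These groups did not overlap, with rises of 2.46-fold (adjusted p = 1.18e-06) and 1.64-fold (adjusted p = 1.22e-05). SCC-25 read 10.36, 10.31 and 10.37 against 10.67, 11.09 and 10.75, a fall by 0.49 ± 0.11. FaDu read 10.39, 10.46 and 10.34 against 10.14, 10.25 and 10.08, and the rise of 0.24 ± 0.09 (adjusted p = 0.0393) was lost in 9 of 18 alternative settings, the replicate block and 5 of the 6 left-out arrays among them. The array does not separate spliced from unspliced XBP1 mRNA.

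HSPA5 encodes BiP, the main Hsp70 chaperone of the ER and the classical reporter of the unfolded protein response. It fell in SCC-25 and FaDu and rose in Cal-27 and SQ20B. SCC-25 read 8.59, 8.64 and 8.82 in resistant and 9.48, 9.18 and 9.69 in sensitive cells, and FaDu 7.69, 7.27 and 7.57 against 8.27, 8.19 and 8.08. In both, all resistant arrays lay below all sensitive ones, at 1.70-fold (adjusted p = 0.000398) and 1.59-fold lower (adjusted p = 0.000550). Cal-27 read 9.89, 10.01 and 10.10 against 9.17, 9.07 and 9.12, and SQ20B 10.38, 10.36 and 10.59 against 9.52, 9.62 and 9.74. The resistant arrays were above there, at 1.84-fold (adjusted p = 0.000105) and 1.76-fold higher (adjusted p = 5.62e-05).

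Of the 8 chaperones and cochaperones, 6 fell in SCC-25 and in FaDu, 4 rose and 1 fell in Cal-27, and 3 rose and 3 fell in SQ20B. HYOU1, a large Hsp70-related chaperone that works with BiP, read 9.05, 8.81 and 9.07 in resistant and 7.66, 7.50 and 7.73 in sensitive Cal-27 cells, a rise of 2.54-fold (adjusted p = 5.18e-06). In FaDu it fell by 0.72 ± 0.13 and in SCC-25 it fell by 0.70 ± 0.13, and it was not called in SQ20B (-0.22 ± 0.13). There 1 of the 2 HYOU1 probes, not the brightest, was called lower. DNAJB9, a J-domain partner of BiP that restrains IRE1, read 9.79, 9.92 and 9.55 against 8.04, 8.13 and 8.19 in SQ20B, the largest rise of the arm there at 3.11-fold (adjusted p = 6.85e-07). In Cal-27 it rose by 1.30 ± 0.10, in SCC-25 it fell by 0.76 ± 0.10, and it was not called in FaDu (0.35 ± 0.14).

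SDF2L1, which works with the cochaperone DNAJB11 to keep proteins soluble in the ER, gave a different picture from BiP. Its groups overlapped in SCC-25 (10.22, 10.25 and 10.33 against 10.32, 10.59 and 10.39) and in Cal-27 (10.53, 10.65 and 10.68 against 10.61, 10.76 and 10.79), with no call at -0.17 ± 0.09 and -0.10 ± 0.09. FaDu read 9.89, 9.78 and 9.91 in resistant and 10.62, 10.54 and 10.60 in sensitive cells, and SQ20B 10.27, 10.29 and 10.38 against 11.37, 11.41 and 11.39. Both were clearly lower in resistant cells, 1.65-fold (adjusted p = 7.06e-06) and 2.11-fold (adjusted p = 7.93e-08). In SCC-25 DNAJB11 fell by 0.61 ± 0.08. In FaDu it fell by 0.29 ± 0.09, a call lost without sensitive replicate 2, sensitive replicate 3 or resistant replicate 1. Its rise of 0.24 ± 0.09 in SQ20B (adjusted p = 0.0349) turned to -0.01 under median scaling and lost its call when any 1 of 4 of that line's arrays was left out.

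HSP90B1, CALR and DNAJC3 complete the chaperones. HSP90B1, the Hsp90 of the ER, fell by 0.28 ± 0.07 in SCC-25 and rose by 0.36 ± 0.07 in Cal-27, and was not called in FaDu (-0.04 ± 0.08) or SQ20B (-0.17 ± 0.08). CALR, a lectin chaperone that binds calcium, fell by 0.85 ± 0.10 in SQ20B, by 0.43 ± 0.10 in FaDu and by 0.28 ± 0.09 in Cal-27, the last lost in 8 of 18 alternative settings. DNAJC3, a BiP cochaperone also known to bind eIF2 alpha kinases, changed by -0.84 ± 0.11 in SQ20B, -0.65 ± 0.11 in FaDu and -0.63 ± 0.10 in SCC-25, and was not called in Cal-27 (0.20 ± 0.10).

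Of the 4 secreted and folding factors, 3 fell in SCC-25, FaDu and SQ20B, and 1 rose and 1 fell in Cal-27. MANF, a secreted protein that binds BiP, read 9.55, 9.76 and 9.58 in resistant and 11.04, 11.07 and 11.04 in sensitive SQ20B cells, 2.68-fold lower and the largest fall of all 43 members in that line (adjusted p = 1.17e-08). In FaDu it fell by 0.94 ± 0.08, in SCC-25 it fell by 0.39 ± 0.09, and it rose by 0.33 ± 0.09 in Cal-27, a call lost without sensitive replicate 1, resistant replicate 2 or resistant replicate 3. CRELD2, a protein of the ER induced by its stress, read 9.07, 9.07 and 9.23 against 10.10, 10.31 and 10.29 in SQ20B, 11.03, 11.31 and 11.36 against 11.81, 11.94 and 11.94 in FaDu and 9.19, 9.32 and 9.20 against 9.80, 9.86 and 9.79 in SCC-25. The resistant arrays lay below the sensitive ones in these 3 lines, by 2.16-fold (adjusted p = 1.29e-06), 1.58-fold (adjusted p = 0.000250) and 1.50-fold (adjusted p = 0.000123). Cal-27 read 10.43, 10.45 and 10.44 against 10.63, 10.44 and 10.56, which overlap, and was not called at -0.10 ± 0.08.

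PDIA4 and PDIA6 encode disulfide isomerases of the ER. PDIA4 was the only measured member that fell in all 4 lines, with changes of -0.98 ± 0.10 in SQ20B, -0.62 ± 0.10 in FaDu, -0.46 ± 0.12 in SCC-25 and -0.36 ± 0.12 in Cal-27. The fall in Cal-27 (adjusted p = 0.0334) was lost in 8 of 18 alternative settings. PDIA6 was the only measured member called in no line, with changes between -0.27 and 0.18. The pair of genes called the same way in all 4 lines, SLC7A5 and PDIA4, can be set against 2.91% of all genes.

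EDEM1 and SEL1L serve the disposal of misfolded proteins, EDEM1 by trimming and handing over glycoproteins and SEL1L as the adaptor of the ubiquitin ligase HRD1. SEL1L read 7.47, 7.74 and 7.33 in resistant and 6.08, 5.80 and 6.46 in sensitive SQ20B cells, a 2.64-fold rise (adjusted p = 5.04e-06), and rose by 0.51 ± 0.15 in FaDu, a call lost without sensitive replicate 2 or resistant replicate 3. Its rise of 0.31 ± 0.10 in Cal-27 was lost in 10 of 18 alternative settings, and in SCC-25 it was detected on 1 of 6 arrays and not called (0.11 ± 0.10). EDEM1 rose by 0.91 ± 0.11 in SQ20B and 0.99 ± 0.11 in Cal-27. In SCC-25 it fell by 0.38 ± 0.11, a call lost when any 1 of 4 of the 6 arrays was left out, and in FaDu it was not called (-0.14 ± 0.11).

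The ER chaperone arm of SQ20B thus held members moving both ways within the same arrays. XBP1, HSPA5, DNAJB9, DNAJB11, EDEM1 and SEL1L rose, while CALR, DNAJC3, SDF2L1, CRELD2, MANF and PDIA4 fell, and HSP90B1, HYOU1 and PDIA6 were not called. Both sides include promoters with a match to the ER stress response element or ERSE-II: XBP1 and HSPA5 rose, whereas CALR, CRELD2 and SDF2L1 fell. HSP90B1 and HYOU1, whose promoters also hold matches, were among those not called (-0.17 and -0.22). In FaDu the same 6 falling genes also fell, and of the 6 rising ones XBP1 and SEL1L rose, HSPA5 and DNAJB11 fell, and DNAJB9 and EDEM1 were not called.

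**Figure D4:**
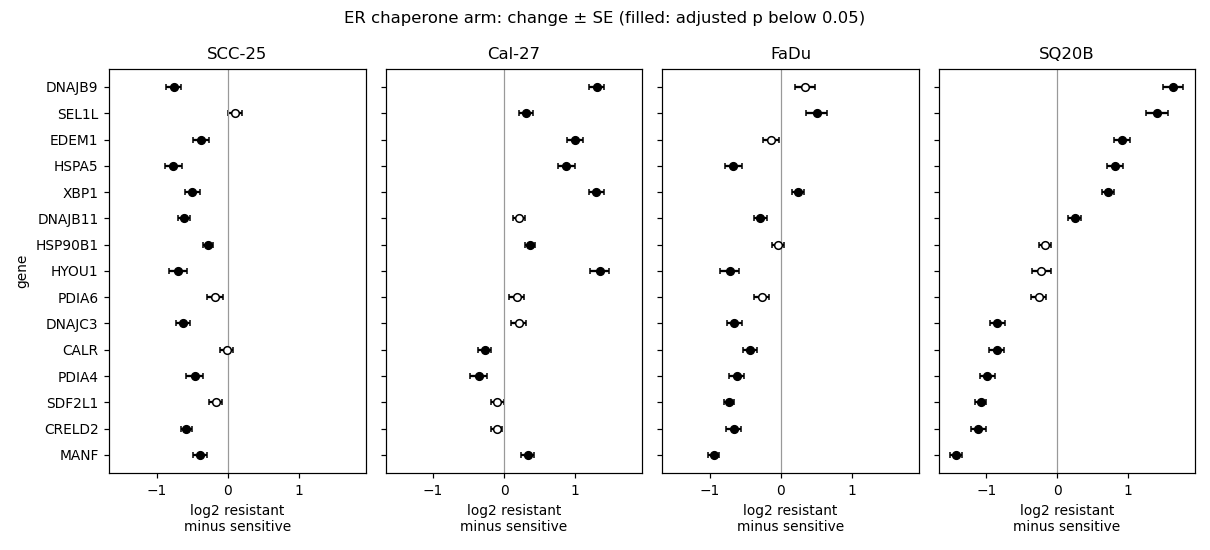
Log2 change ± SE, resistant minus sensitive (horizontal axis), of the 15 measured ER-chaperone-arm genes in each line, in the order of their change in SQ20B; filled points had an adjusted p under 0.05. SQ20B runs from -1.42 (MANF) to 1.64 (DNAJB9), while in SCC-25 all 11 filled points are below 0 and in Cal-27 8 of the 10 filled points are above 0.

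The lines of a table were compared directly by the interaction, the difference between their changes, which was called for 33.6% of all genes between SCC-25 and Cal-27 and for 33.4% between FaDu and SQ20B. Between SCC-25 and Cal-27 it was called for 26 of 28 ATF4-arm genes, 25 of them with the higher change in Cal-27. For the ER chaperone arm it was called for 10 of 15, all with the higher change in Cal-27. For ASNS the difference was -4.69 ± 0.32, SCC-25 minus Cal-27 (adjusted p = 3.03e-07), and for TRIB3 it was -3.86 ± 0.20 (adjusted p = 3.31e-08). Members called in opposite directions numbered 12 of the ATF4 arm and 7 of the ER chaperone arm, all lower in SCC-25 and higher in Cal-27, where 6.07% of all genes were called in opposite directions. For ATF3, MTHFD2 and EDEM1 (SCC-25) and MANF (Cal-27), 1 of the 2 calls was lost with single arrays left out. The fall of PSPH in SCC-25 was called for 1 of its 2 probes.

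Between FaDu and SQ20B the interaction was called for 21 of 28 ATF4-arm genes, 20 of them with the higher change in SQ20B, and for 10 of 15 ER-chaperone-arm genes, 6 with the higher change in SQ20B and 4 with the higher change in FaDu. Only CTH of the ATF4 arm and HSPA5 and DNAJB11 of the ER chaperone arm were called in opposite directions there, against 3.27% of all genes, and both calls of DNAJB11 were lost with single arrays left out. For HSPA5 the difference was -1.48 ± 0.16 (adjusted p = 2.06e-05) and for CTH -1.10 ± 0.18 (adjusted p = 0.000525). Of the 3 CTH probes, only the brightest was called in SQ20B. Across all 4 lines, 14 of the 28 ATF4-arm genes and 8 of the 15 ER-chaperone-arm genes were called in both directions, against 18.1% of all genes.

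Other genes of the pathways, listed with earlier results of these data known, were counted in the same way. Of 25 further ATF4-linked genes, 23 rose and 1 fell in Cal-27, 18 rose and 2 fell in SQ20B, 8 rose and 6 fell in FaDu, and 2 rose and 14 fell in SCC-25. In Cal-27 these are 92% and 4%, beside 16.4% and 17.4% of all genes, and in SQ20B 72% and 8%, beside 28.4% and 25.8%. In FaDu they are 32% and 24%, beside 20.6% and 20.3%, and in SCC-25 8% and 56%, beside 15.4% and 15.5%. PCK2, the mitochondrial enzyme that makes phosphoenolpyruvate, read 10.09, 10.08 and 10.15 in resistant and 7.46, 7.38 and 7.44 in sensitive Cal-27 cells and 7.66, 7.38 and 7.50 against 8.48, 9.27 and 9.12 in SCC-25. It rose by 2.68 ± 0.16 in the former and fell by 1.44 ± 0.16 in the latter, without overlap in either. GDF15, a stress-induced cytokine, rose by 6.37 ± 0.14 in Cal-27. In SCC-25 the neutral amino acid carrier SLC1A4 fell by 1.32 ± 0.22. KLHL24, a ubiquitin ligase adaptor, rose by 1.79 ± 0.15 in FaDu and 3.04 ± 0.15 in SQ20B, JDP2, a bZIP factor, by 1.34 ± 0.13 in FaDu, and CBS, the transsulfuration enzyme before CTH, by 3.08 ± 0.10 in SQ20B. VARS1, which charges valine tRNA, fell by 1.11 ± 0.08 in FaDu and 1.38 ± 0.08 in SQ20B.

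Of 19 further ER genes, 11 rose and 0 fell in Cal-27, while 2 rose and 6 fell in SCC-25, 4 rose and 4 fell in FaDu, and 4 rose and 5 fell in SQ20B. The shares in FaDu (21.1% and 21.1%) and SQ20B (21.1% and 26.3%) were near or below those of all genes (20.6% and 20.3%, and 28.4% and 25.8%), whereas in Cal-27 57.9% rose beside 16.4% of all genes and in SCC-25 31.6% fell beside 15.5%. DNAJC10, a cochaperone with disulfide activity, rose by 0.61 ± 0.11 in SCC-25. SPCS3, a subunit of the signal peptidase, fell by 0.71 ± 0.10 in FaDu and 1.20 ± 0.10 in SQ20B. Of the 16 sensors, kinases and eIF2 genes measured, 5 rose and 2 fell in SCC-25, 5 rose and 4 fell in Cal-27, 3 rose and 4 fell in FaDu, and 6 rose and 4 fell in SQ20B. The shares called higher and lower were 31.2% and 12.5% in SCC-25, beside 15.4% and 15.5% of all genes. In Cal-27 they were 31.2% and 25%, beside 16.4% and 17.4%. In FaDu they were 18.8% and 25%, beside 20.6% and 20.3%, and in SQ20B 37.5% and 25%, beside 28.4% and 25.8%. The falls in SCC-25 and SQ20B and both shares in FaDu were near those of all genes. MBTPS2, a protease that releases ATF6, rose by 0.60 ± 0.09 in SCC-25, and in Cal-27 EIF2S1, which encodes eIF2 alpha, fell by 0.50 ± 0.11 and EIF2B3, a subunit of its exchange factor, by 0.47 ± 0.16. ERN1, which encodes IRE1, was not detected on enough arrays to be tested.

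For 9 members more than 1 probe was tested, giving 36 pairs of a gene and a line. All probes were called the same way in 19 of these, some were called 1 way and the rest not called in 11, none was called in 6, and in 0 were probes called in opposite directions. ASNS was called alike by both its probes in all 4 lines. Of the 128 called changes of members, 90 kept their direction and their call in all alternative settings tried, and 18 lost the call when some 1 array was left out. The log2 size of 31 moved by over 1.5 times without background correction and that of 12 with the authors' processed values. The balance of calls over all genes depends on the scaling. In SCC-25, 49.8% of the called genes were higher after quantile normalization and 37.2% after median scaling. In Cal-27 these shares were 48.5% and 55.9%, in FaDu 50.3% and 43.4%, and in SQ20B 52.4% and 58.2%. The ATF4 arm of SCC-25 was lower in its median under both scalings.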

How the data were processed

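Biotin-labelled cRNA of 24 samples was put on Illumina beadchips, per the labels' protocols. The intensity of each probe was deposited by the authors in 2 tables of 12 arrays, as linear bead signals that had been neither background-corrected nor normalized, as the values show. Beside it the authors deposited a detection p-value in steps of 770 control beads, the count of beads and the bead standard error, a signal that was not used further. A processed table deposited by the authors holds intensity values of the same arrays, with processing not given in the sources used here. Per the submitters' processing notes, GenomeStudio was used.

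Background was corrected with neqc (limma 3.58.1, R 4.3.3, offset 16), with quantile normalization and log2 within each table. The platform annotation gives 1 symbol for 30113 of the 47231 probes and several for 8, and does not list 17110. Entrez identifiers matched RefSeq GRCh38.p14 for 30074 probes, and 0 symbols changed. A probe with 1 symbol entered the test if 3 or more of the 24 arrays had a detection p under 0.05, and the brightest one stood for its gene. The 4 groups of a table shared 1 lmFit and eBayes fit with 8 residual degrees of freedom. The scripts were tested on simulated data. A group with no detected array has only a bound, written "at least", against the lowest detected signal. The median number of beads per probe was 19 to 21, and the 3 arrays of a group limit the precision.

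The members and lists were chosen with earlier results of these data known. Values by array are given for ATF4, ASNS, TRIB3, DDIT3, CHAC1, HSPA5, SDF2L1, CRELD2 and XBP1 in all lines, and for other members called with at least a 2-fold change in the line of their largest change. Same-numbered replicates of a line's 2 states did not deviate together (r from -0.07 to 0.07, 0 of 12 over 0.1), so the numbers do not pair them.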

Additional observations from a re-analysis of the deposited data

Results flagged for a closer look

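Between SCC-25 and Cal-27, 19 members were called in opposite directions, lower in resistant SCC-25 and higher in resistant Cal-27. Each of these differences was also called as an interaction by limma. Opposite calls in the same fit nearly ensure such a call, so it adds no separate evidence. In log2 units for SCC-25 minus Cal-27, the ATF4-arm differences were -4.69 for ASNS, -3.86 for TRIB3, -3.06 for SLC7A11, -2.50 for PSAT1, -2.42 for VLDLR and -2.30 for DDIT3. They were -1.58 for MTHFD2, -1.50 for PSPH, -1.39 for ATF3, -1.37 for ALDH1L2, -1.32 for ATF4 and -1.12 for SHMT2. In the ER chaperone arm they were -2.06 for DNAJB9, -2.05 for HYOU1, -1.79 for XBP1, -1.64 for HSPA5, -1.37 for EDEM1, -0.72 for MANF and -0.64 for HSP90B1. ATF3, MTHFD2 and EDEM1 lost their call in SCC-25, and MANF in Cal-27, with single arrays left out. PSPH was called lower in SCC-25 by 1 of its 2 probes. The values of SLC7A11, VLDLR and ALDH1L2 include SCC-25 groups in which no resistant array detected the gene, so these differences are not bounds.

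Between FaDu and SQ20B, 3 members were called in opposite directions, and for each the interaction was called, which the opposite calls again nearly ensure. HSPA5 differed by -1.48 and DNAJB11 by -0.53, both lower in resistant FaDu and higher in resistant SQ20B, and CTH differed by -1.10 in the same sense. The rise of DNAJB11 in SQ20B is not called under median scaling, and both of its calls were lost with single arrays left out. The rise of CTH in SQ20B was called for 1 of its 3 probes. The media were the same for FaDu and SQ20B and differed between SCC-25 and Cal-27, and the part of the medium in the latter differences was not tested.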

How the results depend on the processing

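Of 2304 values of the 128 called changes under the alternatives, 2170 kept their direction and call, 133 lost the call and 1 reversed. The slide was not run as a block, because the columns name none. With the replicate block, the ER chaperone arm had 1 fall in Cal-27 and 1 rise in FaDu: CALR and SEL1L in Cal-27 and XBP1 in FaDu lost their calls, and it changed no other call of a member. Without background correction the median changes were -0.20 (ATF4 arm) and -0.32 (ER chaperone arm) in SCC-25, 0.84 and 0.20 in Cal-27, 0.24 and -0.34 in FaDu, and 0.88 for the ATF4 arm in SQ20B. With normexp and an offset of 50 they were -0.38 (ER chaperone arm, SCC-25), 0.88 and 0.20 in Cal-27, 0.28 (ATF4 arm, FaDu) and 0.97 (ATF4 arm, SQ20B). With the authors' processed values they were -0.50 (ER chaperone arm, SCC-25), 0.41 (ATF4 arm, FaDu) and 1.23 (ATF4 arm, SQ20B), with 1 fall of the ER chaperone arm in Cal-27. Median scaling gave -0.55 (ER chaperone arm, SCC-25), 0.18 and -0.53 in FaDu and 0.92 and -0.31 in SQ20B. It gave 0 falls of the ER chaperone arm in Cal-27, 9 rises and 4 falls of the ATF4 arm and 1 rise of the ER chaperone arm in FaDu, and 6 ER-chaperone-arm interactions between FaDu and SQ20B. It turned PPP1R15A to -0.0777 and SLC7A1 to -0.0765 in SCC-25, ATF4 to -0.13, MTHFD2 to -0.0757 and WARS1 to -0.15 in FaDu, and DNAJB11 to -0.00969 in SQ20B. The mean of a gene's probes gave -0.28 for ATF4 and -0.0624 for WARS1 in FaDu. A test against a 1.2-fold change called 1579 genes against 4348 in SCC-25, 1946 against 4765 in Cal-27, 2608 against 5762 in FaDu and 4951 against 7640 in SQ20B, and 2501 and 2535 interactions against 4726 (SCC-25 and Cal-27) and 4707 (FaDu and SQ20B). For members it left 0 rises and 7 falls of the ATF4 arm and 6 falls of the ER chaperone arm in SCC-25, 5 rises and 0 falls of the ER chaperone arm in Cal-27, 8 rises and 1 fall of the ATF4 arm and 0 rises of the ER chaperone arm in FaDu, and 4 ER-chaperone-arm interactions between FaDu and SQ20B. With only the 6 arrays of the line, the ATF4 arm had 1 rise in SCC-25 and the ER chaperone arm 1 rise in FaDu. With each array of the line left out in turn, the ATF4 arm's median lay between -0.49 and -0.28 in SCC-25 and between 0.29 and 0.43 in FaDu. The ER chaperone arm's median lay between -0.54 and -0.41 in SCC-25, 0.27 and 0.32 in Cal-27, and -0.51 and -0.37 in FaDu. The counts were 1 to 2 rises of the ATF4 arm in SCC-25, 1 to 2 falls of it in FaDu, 0 to 1 falls of the ER chaperone arm in Cal-27 and 1 rise of it in FaDu. Changes without a call that turned sign with an array left out ranged, in SCC-25, from -0.16 to 0.15 (ATF5), -0.0740 to 0.0583 (CALR), -0.0255 to 0.27 (CTH), -0.0590 to 0.26 (DDIT4), -0.0510 to 0.0978 (PPP1R15A), -0.0967 to 0.00274 (SLC1A5), -0.0481 to 0.0636 (SLC3A2) and -0.0668 to 0.0628 (SLC7A1). In Cal-27 they ranged from -0.16 to 0.00349 (ATF5) and -0.0448 to 0.0265 (WARS1), and in FaDu from -0.0610 to 0.0574 (GARS1), -0.17 to 0.0418 (TRIB3) and -0.0194 to 0.11 (WARS1).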

Other observations

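Some of the upstream genes in the list of sensors were singled out after their values were seen. EIF2AK3, which encodes PERK, the eIF2 alpha kinase of the ER, read 8.05, 7.91 and 8.09 in resistant and 6.65, 6.79 and 6.85 in sensitive SQ20B cells and rose by 1.25 ± 0.14 there and by 0.62 ± 0.10 in Cal-27. It was not called in SCC-25 (0.02 ± 0.10) or FaDu (0.20 ± 0.14). EIF2AK2, which encodes PKR, the kinase that senses double-stranded RNA and is itself induced by interferon, rose by 1.26 ± 0.11 in SQ20B, 0.46 ± 0.11 in FaDu and 0.29 ± 0.08 in SCC-25. EIF2AK4, which encodes GCN2, the kinase that senses uncharged tRNA, was called in SQ20B alone among the 4 lines, where it rose by 0.29 ± 0.10. ATF6 rose by 0.85 ± 0.10 in SQ20B and 0.30 ± 0.10 in Cal-27.

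CREB3L2 and SEC24D, also singled out in this way, belong to the secretory pathway, CREB3L2 as a transcription factor held in the ER membrane and SEC24D as a subunit of the COPII coat that carries cargo out of the ER. CREB3L2 read 10.68, 10.77 and 10.83 in resistant and 8.95, 8.85 and 8.89 in sensitive Cal-27 cells and 8.68, 8.63 and 8.67 against 9.29, 9.58 and 9.67 in SCC-25. It rose by 1.86 ± 0.10 in the former and fell by 0.85 ± 0.10 in the latter. In SCC-25 SEC24D fell by 0.94 ± 0.11, in Cal-27 it rose by 1.04 ± 0.11, and both genes fell in FaDu and were not called in SQ20B. ERO1A, the oxidase that feeds disulfide formation in the ER, rose by 0.32 ± 0.12 in FaDu and 0.61 ± 0.08 in Cal-27. In SCC-25 it fell by 0.58 ± 0.08 and in SQ20B it fell by 0.35 ± 0.12.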
